A study of Mus musculus with 2 samples.

Results

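The enzymes that write and remove 2 silencing marks of chromatin, DNA methylation and trimethylation of histone H3 at lysine 27, were examined in whole uterus on day 4 of pregnancy. The 10 genes were chosen by symbol: the DNA methyltransferases Dnmt1, Dnmt3a and Dnmt3b, the TET dioxygenases Tet1, Tet2 and Tet3, and the core subunits of Polycomb repressive complex 2 (PRC2), Ezh1, Ezh2, Eed and Suz12. All 10 were present among the 22740 genes of the table. Messenger RNA had been sequenced from 2 C57BL/6 mice on day 4 of pregnancy, with 1 library per animal, titled WT1 and WT2 and called uterus 1 and uterus 2 here. The labels give 1 group, with no allele, agent or treatment and no age. The data therefore describe how strongly each gene was expressed and how far the 2 animals differed.

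DNA methylation sits on cytosines next to guanines (CpG). DNMT1 copies it onto the new strand at replication, DNMT3A and DNMT3B place it on unmethylated DNA, and the TET enzymes oxidise methylcytosine as a step toward its removal. PRC2 methylates histone H3 at lysine 27 through EZH1 or EZH2, which need EED and SUZ12 to be active, and Polycomb repressive complex 1 (PRC1) acts on the same chromatin and ubiquitylates histone H2A. On day 4 the mouse uterus, under progesterone and a small rise of oestrogen, becomes receptive to the embryo, and stromal cells divide ahead of decidualization. Only RNA was measured here, so the amounts of protein, DNA methylation and histone marks are not known from these data.

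Levels are given in the authors' RPKM, in which the reads of a gene are divided by its length and by the size of the library, so that genes can be set side by side. Whole reads could be recovered for all but 102 genes, 3754427 in uterus 1 and 4171264 in uterus 2. Of these, the 10 genes held 2982 and 3367. Intervals given for single uteri are exact Poisson 95% intervals and cover only the error of counting. Reads copied by PCR do not stand for separate molecules, so the intervals can be too narrow even for that error. The tissue label matched the markers: all 14 markers of uterine tissue and its cell types were at 1 RPKM or more in both uteri, with a list median of 90.8 ± 2.80 RPKM (SD, n = 2). Of 6 embryo and germ cell markers, none reached 1 RPKM in both uteri. Their summed level was 2.23 RPKM in uterus 1 and 0.727 RPKM in uterus 2, and Cdx2, Zp3 and Dppa3 were listed at 0.

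All 10 genes were at 1 RPKM or more in both uteri, a level that 58.4% of the genes in the table reached. Of the 10, 8 were at 10 RPKM or more in both, against 30.4% of the table. Their median level was 11.8 RPKM and the median of the 13280 genes at 1 RPKM or more in both uteri was 11.4 RPKM, so as a set they lay near the middle of the expressed genes. In whole tissue a low level can mean few cells with the transcript or little of it in each cell, and these cannot be told apart.

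Among the DNA methyltransferases the maintenance enzyme was the most abundant. Dnmt1 (NM_010066, chromosome 9, 20711650 to 20757423, minus strand, NCBIM37) lay at 26.2 RPKM in uterus 1 (interval 24.2 to 28.3, 633 reads) and at 25.2 RPKM in uterus 2 (23.4 to 27.2, 677 reads), a mean of 25.7 ± 0.676 (SD, n = 2). It was the highest of the 10 genes and lay above 78.7% of the expressed genes. The length behind its value was 6304 bases, whereas the annotation holds a transcript of 5264 bases. With the annotated length its mean would be 30.8 RPKM.

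Dnmt3a (NM_001271753, chromosome 12, 3807160 to 3914443, plus strand), a de novo methyltransferase, lay at 11.48 RPKM in uterus 1 on 438 reads and at 11.53 RPKM in uterus 2 on 488 reads. Its mean of 11.5 ± 0.0301 RPKM put it at the middle of the expressed genes, above 50.3% of them. Dnmt3b (NM_001271747, chromosome 2, 153475185 to 153513466, plus strand), the other de novo enzyme, was the lowest of the 10 genes at 2.29 RPKM in uterus 1 (1.62 to 3.14) and 2.82 RPKM in uterus 2 (2.11 to 3.70). It rested on 38 and 52 reads, the fewest of the set, and only 10.1% of the expressed genes lay below its mean of 2.56 ± 0.377 RPKM.

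Within each uterus, Dnmt3a exceeded Dnmt3b by 5.01-fold (exact 95% interval 3.595 to 7.18) and 4.08-fold (3.06 to 5.54). Both intervals, which cover counting error, lay well above 1. Dnmt1 exceeded Dnmt3a by 2.28-fold (2.02 to 2.58) in uterus 1 and 2.19-fold (1.95 to 2.46) in uterus 2. Dnmt1 thus made up 64.6% ± 1.26 (SD, n = 2) of the summed methyltransferase RPKM, Dnmt3a 28.9% ± 0.271 and Dnmt3b 6.43% ± 0.991. With the longest annotated transcripts the mean ratio of Dnmt1 to Dnmt3a was 2.61 in place of 2.235, above both intervals given for that ratio. The shares rest on the authors' lengths as well.

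The TET genes were expressed at 2 levels, with Tet3 and Tet2 close together and Tet1 below them. Tet3 (NM_183138, chromosome 6, 83312368 to 83391672, minus strand) lay at 11.4 RPKM in uterus 1 (10.4 to 12.4, 475 reads) and 12.4 RPKM in uterus 2 (11.4 to 13.5, 576 reads). Tet2 (NM_001040400, chromosome 3, 133126641 to 133207354, minus strand) lay at 10.1 RPKM (9.06 to 11.2, 355 reads) and 10.9 RPKM (9.84 to 11.9, 424 reads). Tet1 (NM_001253857, chromosome 10, 62267318 to 62342762, minus strand) lay at 3.94 RPKM (3.43 to 4.51, 213 reads) and 3.77 RPKM (3.30 to 4.30, 226 reads). The 2 uteri of Tet1 lay far below all values of Tet2 and Tet3, whereas Tet2 and Tet3 differed little.

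The ratio of Tet3 to Tet2 was 1.13 (0.980 to 1.30) in uterus 1 and 1.14 (1.01 to 1.30) in uterus 2, so an equal level was inside the counting interval of uterus 1 and just outside that of uterus 2. Tet2 exceeded Tet1 by 2.56-fold (2.15 to 3.04) and 2.88-fold (2.44 to 3.40). Of the summed TET RPKM, Tet3 gave 45.3% ± 0.825 (SD, n = 2), Tet2 39.9% ± 0.298 and Tet1 14.7% ± 1.12. The summed methyltransferase level was 1.57 times the summed TET level in uterus 1 and 1.46 times in uterus 2.

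**Figure D1:**
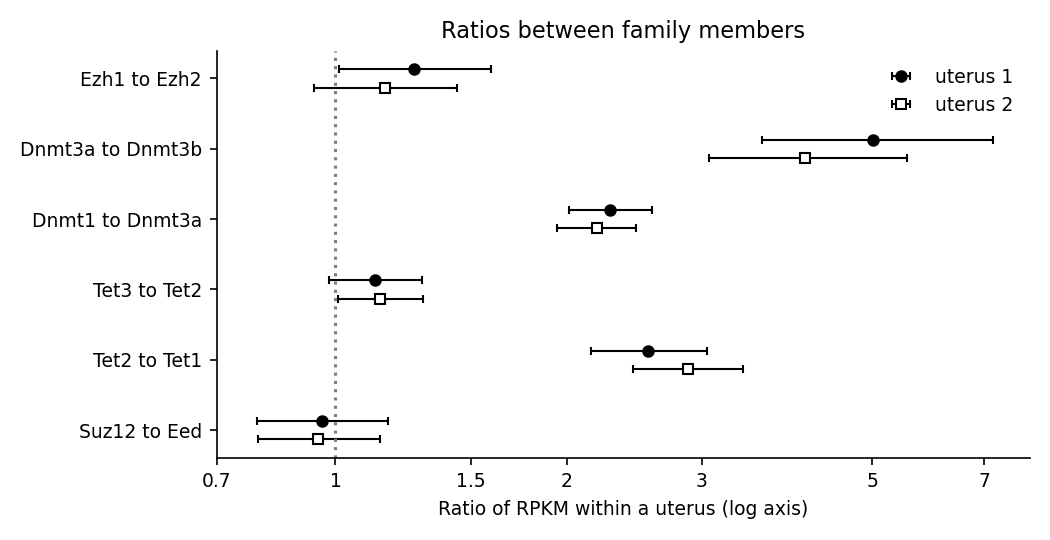
Ratio of RPKM between members of a family within each uterus, on a log axis; filled circles are uterus 1, open squares uterus 2, bars exact 95% intervals for counting error, and the dotted line an equal level. The intervals of Dnmt3a to Dnmt3b, Dnmt1 to Dnmt3a and Tet2 to Tet1 lie above 1 in both uteri, and those of Suz12 to Eed span 1 in both.

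In the DNA just upstream of the start sites, Tet1 had the fewest CpGs of the 10 genes and Tet2 the most. This DNA is shown here because CpG-rich DNA is where TET and Polycomb proteins are known to gather. The 250 bases before each deposited start were read from NCBIM37, 5′ to 3′ on the gene's strand, with each CpG in capitals. Tet2 is chr3:133207355-133207604 (minus strand) and Tet1 is chr10:62342763-62343012 (minus strand).
Tet2: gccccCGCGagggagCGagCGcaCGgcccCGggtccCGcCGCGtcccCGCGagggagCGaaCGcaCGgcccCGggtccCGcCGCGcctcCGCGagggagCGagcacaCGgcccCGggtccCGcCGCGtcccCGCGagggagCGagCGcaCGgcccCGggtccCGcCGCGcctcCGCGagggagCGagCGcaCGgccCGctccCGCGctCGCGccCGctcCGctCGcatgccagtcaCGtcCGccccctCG
Tet1: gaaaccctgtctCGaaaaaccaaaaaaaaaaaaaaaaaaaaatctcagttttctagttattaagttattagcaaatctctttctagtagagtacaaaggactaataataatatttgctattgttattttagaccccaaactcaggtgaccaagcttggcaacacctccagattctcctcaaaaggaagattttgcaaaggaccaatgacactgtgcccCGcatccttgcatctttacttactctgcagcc
The Tet2 window held 51 CpGs, more than 99.9% of the 22663 gene windows, and the Tet1 window held 2, more than 15.3% of them. Against the windows of genes at 1 RPKM or more in both uteri, the shares were 99.8% and 3.6%. The deposited start of each coincides with an annotated transcript start. Other annotated starts of Tet1 had at most 6 CpGs upstream, and another start of Tet2 had 1. Tet3, the highest of the TET genes in mean level, held 17 CpGs, and a link between CpG number and level was not tested.

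The core subunits of PRC2 lay between 11.4 and 20.3 RPKM, Eed and Suz12 above the catalytic subunits. Eed (NM_021876, chromosome 7, 97103164 to 97129486, minus strand), the subunit that binds the methylated histone tail, lay at 20 RPKM in uterus 1 (17.0 to 23.4, 158 reads) and 20.3 RPKM in uterus 2 (17.4 to 23.5, 178 reads). Suz12 (NM_001163018, chromosome 11, 79806608 to 79847625, plus strand), the scaffold subunit, lay at 19.2 RPKM (17.2 to 21.4, 322 reads) and 19.3 RPKM (17.3 to 21.4, 359 reads). The ratio of Suz12 to Eed was 0.960 (0.791 to 1.17) and 0.950 (0.792 to 1.14), so any difference between them was inside the counting error at this depth.

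Ezh1 (NM_007970, chromosome 11, 101052429 to 101087764, minus strand), known as the catalytic subunit of non-dividing cells, lay at 14.5 RPKM in uterus 1 (12.7 to 16.5, 233 reads) and 14.0 RPKM in uterus 2 (12.3 to 15.9, 250 reads). Ezh2 (NM_007971, chromosome 6, 47480273 to 47545029, minus strand), its more active counterpart and typical of dividing cells, lay at 11.4 RPKM (9.46 to 13.7, 117 reads) and 12.1 RPKM (10.1 to 14.3, 137 reads). Ezh1 was higher than Ezh2 in both uteri. The ratio was 1.27 (1.01 to 1.595) in uterus 1 and 1.16 (0.938 to 1.44) in uterus 2, so the excess was at the edge of counting error in the first and within it in the second.

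Ezh1 and Ezh2 together gave 26.0 ± 0.102 RPKM (SD, n = 2), which was 1.29 times Eed and 1.35 times Suz12 as a mean over the uteri. These ratios are of RNA, and the make-up of the protein complex was not measured. The windows upstream of the 2 catalytic genes were both CpG-containing and are shown for the pair, again with each CpG in capitals. Ezh1 is chr11:101087765-101088014 (minus strand) and Ezh2 is chr6:47545030-47545279 (minus strand).
Ezh1: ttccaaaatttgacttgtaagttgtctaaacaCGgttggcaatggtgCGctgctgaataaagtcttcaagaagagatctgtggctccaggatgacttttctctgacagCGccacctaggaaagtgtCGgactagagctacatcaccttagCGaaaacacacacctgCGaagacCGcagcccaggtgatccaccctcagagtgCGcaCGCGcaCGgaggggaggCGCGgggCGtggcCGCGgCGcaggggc
Ezh2: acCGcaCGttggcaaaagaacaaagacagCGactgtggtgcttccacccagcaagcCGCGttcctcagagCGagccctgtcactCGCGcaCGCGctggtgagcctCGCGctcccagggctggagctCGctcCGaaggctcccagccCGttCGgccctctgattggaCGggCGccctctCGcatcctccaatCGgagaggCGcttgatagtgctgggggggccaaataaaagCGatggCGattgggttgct
They held 17 and 23 CpGs, more than 67.8% and 81.8% of all gene windows. Against the windows of genes at 1 RPKM or more in both uteri, the shares were 53.1% and 73.5%.

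**Figure D2:**
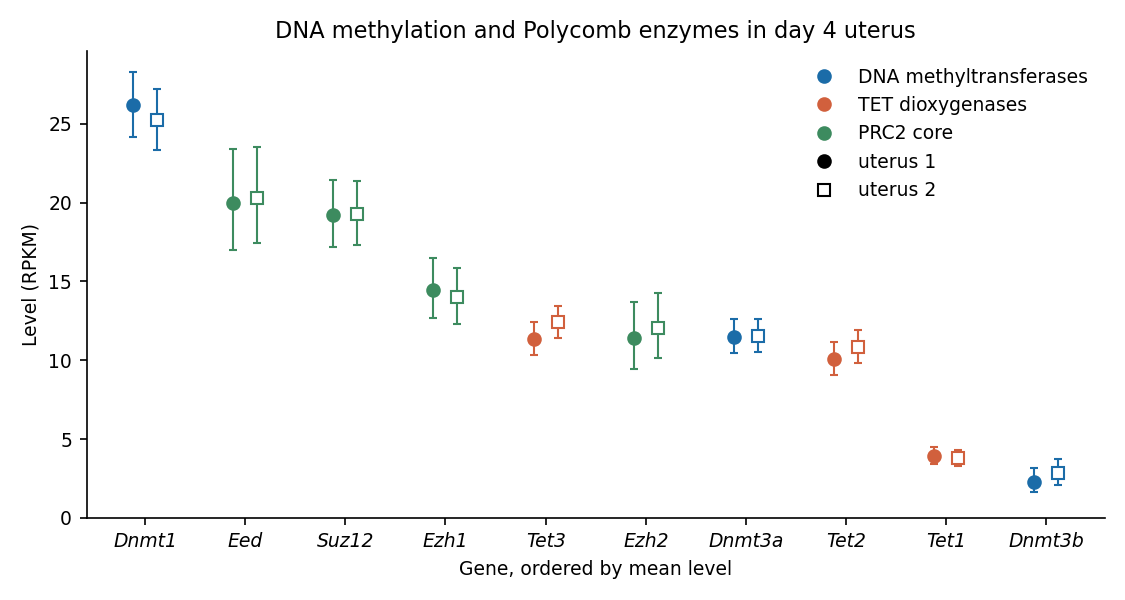
Level of each gene in RPKM, ordered by mean; filled circles are uterus 1, open squares uterus 2, colours the 3 families, and bars exact Poisson 95% intervals for counting error. Dnmt1 is highest at 26.2 and 25.2 RPKM, 5 genes from Ezh1 to Tet2 lie between 10.1 and 14.5 RPKM, and Tet1 and Dnmt3b lie below 4.

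Ordered by mean level, the genes were Dnmt1, Eed, Suz12, Ezh1, Tet3, Ezh2, Dnmt3a, Tet2, Tet1 and Dnmt3b. Of the 9 neighbouring pairs in this order, 7 did not overlap between the uteri of one gene and those of the other. The exceptions were Tet3 with Ezh2 and Ezh2 with Dnmt3a, and in both of these pairs the order in uterus 1 was the reverse of that in uterus 2. No p is given for these pairs, since an exact permutation test of 2 values against 2 has a smallest two-sided p of 0.333. For Eed with Suz12 and Dnmt3a with Tet2 the values did not overlap but the counting intervals did in both uteri. For Dnmt1 with Eed, Ezh1 with Tet3 and Tet1 with Dnmt3b the counting intervals overlapped in uterus 2 only. No share over other genes was set beside the 7 pairs, and the order itself was set by the same values. The clear steps, with counting intervals apart in both uteri, were from Suz12 down to Ezh1, with a ratio of means of 1.35, and from Tet2 down to Tet1, with a ratio of means of 2.71.

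The 10 windows as a set held a median of 19 CpGs, against 10 over all gene windows and 16 over the windows of genes at 1 RPKM or more in both uteri. Dnmt3a with 40 and Suz12 with 37 followed Tet2, and Dnmt1 with 7 preceded Tet1 at the low end. Dnmt3b held 21, Tet3 17 and Eed 12. These counts depend on the start site that is used. The deposited start of Dnmt1 lies 106 bases from the annotated one, whose window held 13 CpGs, and another annotated start of Eed had 40. The lowest count over annotated starts was 0 for Dnmt3a and Ezh2, 1 for Suz12 and Tet2, 2 for Dnmt3b, 3 for Ezh1 and 6 for Tet3, and the highest was 41 for Dnmt3b and 22 for Ezh1.

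**Figure D3:**
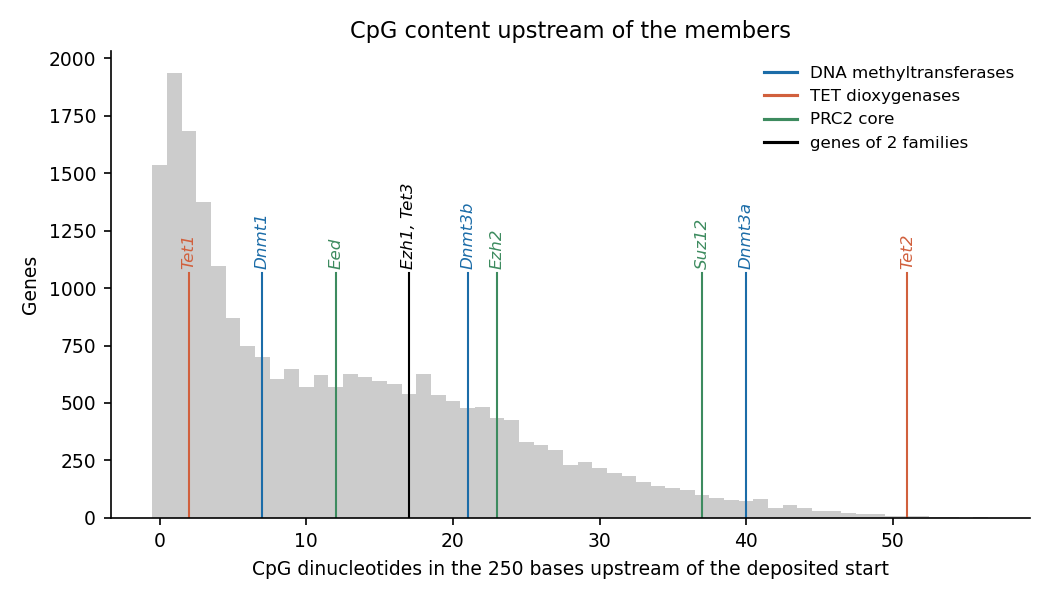
Number of CpG dinucleotides in the 250 bases upstream of the deposited start, with grey bars counting genes of the table and vertical lines marking the members, coloured by family (black where genes of different families share a value; line height carries no value). Tet1 with 2 and Tet2 with 51 CpGs lie at opposite ends, and Ezh1 and Tet3 share 17.

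The second comparison was between the 2 animals. No member was called different between the uteri by a two-sided exact binomial test on the recovered reads with Benjamini-Hochberg adjustment over 15038 genes (0 of 10 members), where 4.74% of all genes tested were called. At an unadjusted p under 0.05 the count of members was also 0, against 15.7% of all genes tested, and the lowest adjusted p among them was 0.563, for Tet3. The test compares these 2 libraries and not conditions. Among the 9176 genes with read sums in the range of the members, 3.98% were called, so a count of 0 among 10 genes is near that background. None of the members was 2-fold apart, against 2.6% of the genes averaging 1 RPKM or more.

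The intervals show what size of difference this depth could have missed. Dnmt3b had the largest ratio of uterus 2 to uterus 1, 1.23, and the widest exact 95% interval, 0.796 to 1.93. Tet3 had a ratio of 1.09 (0.966 to 1.24) and Tet2 1.08 (0.932 to 1.24). Dnmt1, the gene with most reads, had a ratio of 0.964 (0.863 to 1.08). The ratio was 1.00 for both Dnmt3a (0.880 to 1.15) and Suz12 (0.862 to 1.17), 1.02 for Eed (0.815 to 1.27), 1.06 for Ezh2 (0.818 to 1.36), 0.967 for Ezh1 (0.805 to 1.16) and 0.956 for Tet1 (0.789 to 1.16). Values were higher in uterus 2 for 7 genes and in uterus 1 for 3. The median log2 ratio was 0.01 over the members and 7.0e-04 over all genes averaging 1 RPKM or more, both after a pseudocount of 0.1 RPKM.

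The spread between the animals can be set beside counting error. The SD over the 2 uteri was 0.261% of the mean for Dnmt3a and 0.309% for Suz12, and counting alone gives 4.53% to 5.57% for these genes in 1 library. For 7 of the 10 genes the SD was below the counting error of both libraries, as it was for 52.4% of the genes at 1 RPKM or more in both uteri. With 2 animals an SD is known only roughly, so such a count does not show that the animals did not differ. Dnmt3b, at 14.7% against 16.2% and 13.9%, and Tet2, at 5.17% against 5.31% and 4.86%, lay between the counting errors of the libraries. Tet3, with an SD of 6.25% of the mean against counting errors of 4.59% and 4.17%, exceeded both. The median gene between 10 and 100 RPKM had an SD of 6.34% of its mean. Of the tissue markers, 5 of 14 were called different between the uteri in the same exact test, namely the stromal genes Col1a1 at 1184 and 851 RPKM and Vim at 447 and 522 RPKM, the smooth muscle genes Myh11 at 314 and 350 RPKM and Acta2 at 653 and 592 RPKM, and the progesterone receptor Pgr at 77.5 and 66.4 RPKM, in uterus 1 and uterus 2. Over all genes tested 4.74% were called. Each of these 5 markers rested on more reads than any member, from 2048 and 1946 for Pgr to 21332 and 17009 for Col1a1, and of the 1104 genes with more reads than any member 26.2% were called. The part of such differences in the members' levels was not tested.

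**Figure D4:**
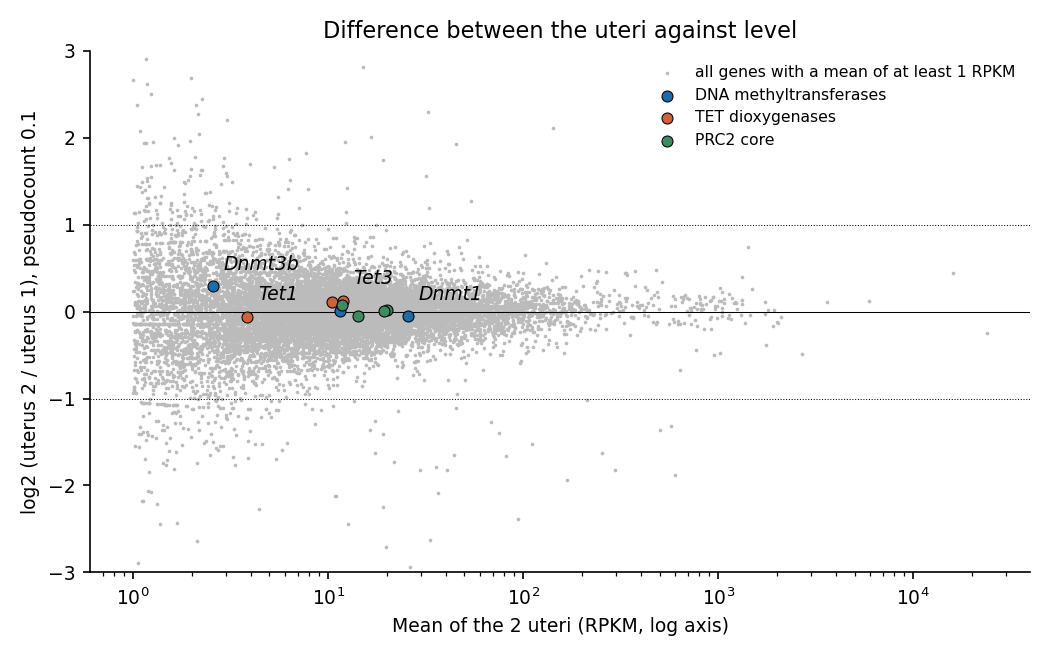
log2 ratio of uterus 2 to uterus 1 (pseudocount 0.1 RPKM) against the mean level in RPKM on a log axis, with grey points for genes averaging 1 RPKM or more, coloured points for the 3 families and dotted lines at a 2-fold difference; 27 genes beyond a log2 ratio of 3 either way are outside the frame. The members lie near 0, the farthest being Dnmt3b at 0.29.

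The third question was which partners of these enzymes were expressed beside them. The lists of partners were chosen with earlier results of these data known and hold 59 genes in 5 groups. At 1 RPKM or more in both uteri were 53 of the 59 (89.8%), against 58.4% of the table. The exact binomial test called none of the 57 tested different between the uteri after Benjamini-Hochberg adjustment, where 4.74% of all genes tested were called, and the lowest adjusted p was 0.104. At an unadjusted p under 0.05 were 8 of the 57, against 15.7% of all genes tested, so both counts are near the background or below it.

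Of 12 cofactors and readers of DNA methylation, 11 were at 1 RPKM or more in both uteri, with a list median of 14.5 ± 0.333 RPKM (SD, n = 2). The highest were Mbd3, a subunit of the NuRD complex, at 34.0 ± 1.08 RPKM, Uhrf2 at 33.8 ± 2.30 RPKM and Mbd2, a reader of methylated CpG, at 30.8 ± 1.23 RPKM. The lowest were Dnmt3l, the catalytically inactive partner of the de novo enzymes in germ cells, at 0.830 and 0.623 RPKM on 6 and 5 reads, and Zbtb33 at 6.75 ± 1.11 RPKM. Uhrf1, which brings DNMT1 to newly replicated DNA and was singled out after its values were seen, lay at 17.5 and 17.6 RPKM, below Dnmt1 in both uteri.

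Of 13 genes for repair of oxidised cytosine and for the activity of TET enzymes, 10 were at 1 RPKM or more in both uteri. Idh2 at 70.9 ± 5.95 RPKM and Idh1 at 25.75 ± 1.11 RPKM make the 2-oxoglutarate that TET enzymes consume, and Ogt, a glycosyltransferase that binds TET proteins, lay at 62.0 ± 0.525 RPKM. The lowest were Cxxc4, an inhibitor of TET2, at 0.139 and 0.0836 RPKM on 3 and 2 reads, and Tdg, the glycosylase that excises oxidised cytosine, at 0.162 RPKM in uterus 1 on 2 reads and 0 in uterus 2. The Tdg value is uncertain. Besides its own locus, 3 places of the genome matched over 50% of its transcript at 95% or more of the aligned bases, and how the authors counted reads with several matches is not given in the sources used here. No member had such a copy.

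Of 8 further PRC2 subunits, 7 were at 1 RPKM or more in both uteri, and the histone-binding partners Rbbp7 at 156.5 ± 10.9 RPKM and Rbbp4 at 50.9 ± 0.660 RPKM were highest. Both also belong to other chromatin complexes. Jarid2, a DNA-binding subunit that helps PRC2 find its targets, lay at 16.3 ± 0.352 RPKM. The lowest were Phf19, one of the Polycomb-like proteins, at 2.75 ± 0.343 RPKM, and Epop at 1.01 and 0.807 RPKM on 9 and 8 reads. The list median was 13.6 ± 0.314 RPKM, between the levels of Ezh2 and Ezh1.

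All 20 PRC1 genes were at 1 RPKM or more in both uteri, with a list median of 9.20 ± 0.0168 RPKM (SD, n = 2). The highest were Cbx6 at 37.3 ± 2.81 RPKM, the RING-finger subunit Bmi1 at 29.0 ± 3.06 RPKM and the ubiquitin ligase Rnf2 at 24.9 ± 0.391 RPKM. Cbx7 at 4.58 ± 0.870 RPKM and Cbx2 at 5.32 ± 0.766 RPKM, which bind trimethylated lysine 27, were lowest. Of 6 genes that oppose Polycomb marks, 5 were at 1 RPKM or more in both uteri. The demethylase Kdm6a lay at 33.9 ± 0.188 RPKM, its relative Kdm6b at 7.90 ± 0.267 RPKM, the H2A deubiquitinase Bap1 at 19.7 ± 1.83 RPKM, and its partners Asxl1 and Asxl3 at 17.3 ± 0.702 and 0.929 ± 0.0211 RPKM. The median of these 6 was 14.5 ± 0.345 RPKM.

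Genes of replication and division, with which Dnmt1 and Ezh2 are known to rise in dividing cells, were all at 1 RPKM or more in both uteri (15 of 15, median 22.4 ± 1.65 RPKM). Pcna, the replication clamp to which DNMT1 binds, lay at 73.4 ± 2.50 RPKM, Top2a at 60.9 ± 4.12 RPKM and Mcm7 at 34.2 ± 2.23 RPKM. Birc5 at 5.71 ± 0.882 RPKM and Rrm2 at 10.2 ± 1.15 RPKM were lowest. Of the 15, 12 were lower in uterus 2, against 49.9% of the genes at 1 RPKM or more in both uteri. The exact binomial test called none after Benjamini-Hochberg adjustment, against 4.74% of all genes tested, with a lowest adjusted p of 0.0982. At an unadjusted p under 0.05 were 2 of the 15, near the 15.7% of all genes tested.

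**Figure D5:**
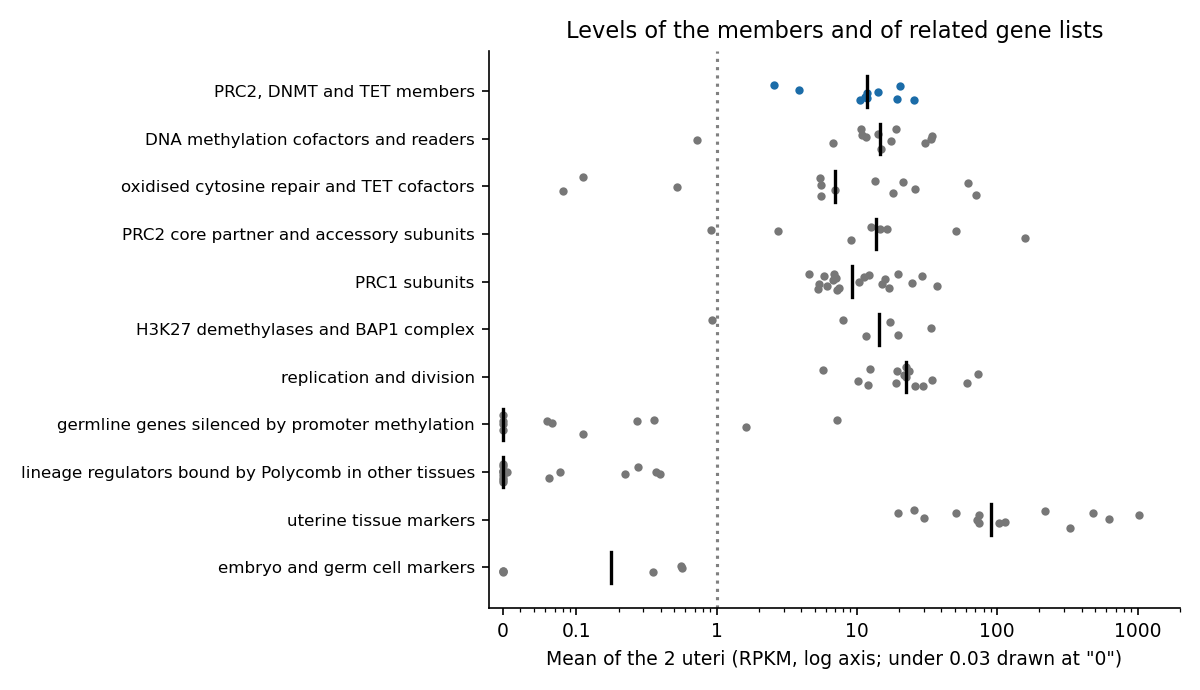
Mean RPKM of each gene on a log axis for the members (blue) and for the related lists (grey), with a black bar at the average of the median in each uterus and a dotted line at 1 RPKM; values under 0.03 are drawn at the left edge. The 5 partner lists lie mostly between 1 and 100 RPKM around the members, and the lists of germline genes and lineage regulators lie mostly below 1.

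The last lists hold genes known from other work as silenced in body tissues by these marks. Of 11 germline genes kept off by promoter DNA methylation, 2 were at 1 RPKM or more in both uteri and 4 were listed at 0 in both. Sycp3, a protein of meiotic chromosomes, lay at 6.97 and 7.54 RPKM on 25 and 30 reads, and Brdt at 1.82 and 1.45 RPKM on 35 and 31 reads. Ddx4 followed at 0.549 and 0.165 RPKM on 6 and 2 reads. Dazl, Mael, Sycp1 and Tuba3a were listed at 0. If no read was counted, an approximate upper 95% limit of 3 reads corresponds to 0.519 RPKM for Tuba3a in uterus 1, the highest limit among them, and covers counting error only.

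Of 16 regulators of other lineages that Polycomb proteins are known to occupy where they are silent, none was at 1 RPKM or more in both uteri and 9 were listed at 0 in both. The highest were Nkx2-1, a regulator of lung and thyroid, at 0.456 and 0.328 RPKM on 5 and 4 reads, and Pax6, a regulator of eye and brain, at 0.354 and 0.383 RPKM on 5 and 6 reads. Pdx1, a regulator of the pancreas, was listed at 0 in uterus 1 and lay at 0.548 RPKM in uterus 2 on 10 reads. Its adjusted p in the exact binomial test was 0.0474, but it passed the filter on reads only through uterus 2, so no difference is read from it. Its reads, like those of Tdg, rest on an annotated length, since a gene at 0 in 1 library gives no ratio. A gene listed at 0 can also be a failed estimate, and whether either mark lay on these genes was not measured.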

How the data were processed

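RNA of whole uterus from 2 mice on day 4 of pregnancy was sequenced, 1 library per animal. Extraction used Trizol, and 1 microgram of RNA entered each TruSeq library, per the labels' protocols; per the series' design text, RNA with poly-A tails was selected and read on a HiSeq2500. The submitters' processing notes name TopHat, edgeR and mm9. Counting program, annotation and use of strand are not given in the sources used here. The deposited values are RPKM, which the authors computed per the series' design text.

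The RPKM values of the 2 tables were identical for all 22740 genes of the main table, and every value column was matched to a library. Reads were recovered because values are whole multiples of what 1 read is worth: 304 single-exon genes gave scaling totals of 3834174 and 4256101, which are not plain read totals. With them 95.1% of 528 and 94.2% of 534 single-exon values were within 0.001 of a whole number of reads. For other genes the whole-number ratio of the libraries gave reads and length, and a common factor was chosen by closeness to an annotated GENCODE M1 length (scale 0.05 in log length), and 102 genes gave no whole length and were not tested. The libraries differed beyond sampling noise (chi-square 3.49 per gene over 13305 genes).

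Deposited starts were read as counted from 0, because 11970 of 20759 matched genes had an annotated start 1 base later, and are printed from 1. Genes needed 6 reads in sum for the exact binomial test, which was called at an adjusted p under 0.05 and was tested on simulated data. Transcripts were aligned to the genome with minimap2 2.31-r1302, and statistics used Python 3.11.15 with SciPy 1.17.1. Named were all 10 members, the 3 highest and 2 lowest genes of each partner list, the 3 highest of the germline and lineage lists, and list genes called. Other names, such as Uhrf1, the other glycosylases and the germline and embryo genes listed at 0, were chosen after their values were seen. The members and lists were chosen with earlier results of these data known. With 2 libraries no likeness of pattern across samples was measured. Alternatives covered scaling, length, pseudocount, filters, detection threshold, start site and leaving out each library.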

Additional observations from a re-analysis of the deposited data

How the results depend on the processing

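Apart from leaving out a library, 135 combinations of a result and an alternative were computed. In 127 of them a level or ratio moved by less than 1 SD, a count by at most 1.5 times, or a test stayed on the same side of its threshold. This does not mean that the value was unchanged, and many of these values could hardly move. The rescalings divided uterus 1 and uterus 2 by 0.9998 and 1.0, 0.9992 and 1.001, or 0.9914 and 1.009. Such divisors nearly cancel in a mean over both uteri. The smallest possible reads left the ratio of the uteri nearly the same for each member. The count of 127 is therefore not a measure of stability. For means and ratios of 2 libraries, leaving out either one must move the value by less than 1 SD, so it gives no information on stability. In uterus 1 alone, 7 of 9 neighbouring pairs kept the order of the means. The longest annotated transcript in place of the authors' length moved Dnmt1 to 30.8 RPKM, Dnmt3a to 11.8 RPKM and the ratio of Dnmt1 to Dnmt3a to 2.61, which follows from the lengths used. The count of all genes at least 2-fold apart, 355, became 153 with a pseudocount of 1, 48 at a mean of at least 10 RPKM and 1846 with no filter, whereas the count of members was 0 under each alternative run. With a threshold of 2 RPKM, 1 germline gene was detected. The exact binomial test called 573 to 732 genes and no member over its settings, with a lowest adjusted p for Tet3 of 0.533 to 0.635. The annotated start moved the CpG count of Dnmt1 from 7 to 13, an alternative chosen after seeing the data. Depth limits Dnmt3b most, on 38 and 52 reads. Exonic overlap on the opposite strand was annotated for Dnmt3a, Ezh2 and Suz12. The longest overlap of exons was 178 bases, and the total over all exons is not given. Reads from such overlaps cannot be told apart if strand was not used in counting. No paired analysis was possible because both libraries belong to the same group.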

Other observations

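Stretches similar to the members' transcripts were looked for elsewhere in the genome, because such copies can share reads in counting. The Dnmt3b transcript aligned over 41.5% of its length to another place on chromosome 2, with matches at 89.1% of the aligned bases. The Suz12 transcript aligned over 89.8% of its length to chromosome X at 86.6% and over 15.6% to chromosome 13 at 96.5%. The other 8 members aligned to their own locus only, under the settings used. The part of these copies in the levels was not tested.

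Tdg, with 2 reads in uterus 1 and none in uterus 2, was set beside the other DNA glycosylases of its list. Mbd4 lay at 6.95 ± 1.29, Neil1 at 5.59 ± 0.335 and Smug1 at 5.46 ± 0.372 RPKM (SD, n = 2), whereas Neil2 was also low, at 0.681 and 0.368 RPKM on 5 and 3 reads. Copies of the Tdg transcript matched over 86.4%, 85.2% and 83.8% of its length on chromosomes 15, 10 and 7, at 98.7%, 96.0% and 99.3% of the aligned bases. These other glycosylases were named after their values were seen.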
